A study of Homo sapiens with 21 samples.

Results

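Of the 10 genes described here, NQO1, HMOX1, TXNRD1, GCLC, GCLM and SRXN1 encode enzymes or enzyme subunits that NRF2 is known to switch on. The others encode the transcription factor NRF2 (gene NFE2L2), its inhibitor KEAP1, the cystine carrier SLC7A11 and the lipid peroxidase GPX4. The 10 genes were taken by symbol from a table of 34021 genes, and all 10 were found. H1975 is an established line of human lung adenocarcinoma cells with a mutated epidermal growth factor receptor (EGFR). The values come from 9 RNA-seq libraries, 3 in each of 3 groups, of the 21 samples that make up the study, and all are H1975 cells kept for 8 days. DMSO_EV received the solvent DMSO, with EV, which the labels do not spell out. Osi_Lin_EV carries EV in its title and received 500 nM osimertinib, a drug that binds mutant EGFR covalently, with 500 nM linsitinib, which inhibits the kinases of the IGF1 and insulin receptors. Osi_cIGF1R received 500 nM osimertinib and overexpressed cIGF1R, a circular RNA of the IGF1R gene. None of the 9 libraries received osimertinib and EV without linsitinib. In Osi_cIGF1R the effects of the drug and of the circular RNA therefore cannot be told apart. Osi_Lin_EV differs from DMSO_EV by both drugs together. Osi_cIGF1R differs from Osi_Lin_EV both by the lack of linsitinib and by cIGF1R, and these effects cannot be told apart either. Nothing in the labels says that replicates are separate cultures, and p-values therefore measure the spread between libraries, which may be technical.

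In resting cells KEAP1 binds NRF2 and hands it to a ubiquitin ligase for destruction. Oxidants and electrophiles modify cysteines of KEAP1, and NRF2 then escapes, enters the nucleus and pairs with small MAF proteins on antioxidant response elements, where the repressor BACH1 competes for the same sites. Ferroptosis is a death driven by iron-dependent oxidation of membrane lipids. It is held back chiefly by a chain that runs from cystine uptake through SLC7A11, by way of glutathione, to GPX4, which uses glutathione to reduce lipid peroxides. Cancer cells that outlast kinase inhibitors have been described as leaning on this chain.

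Promoter sequences in RefSeq (GRCh38.p14) were matched for 8 of the 10 genes, all but HMOX1 and SLC7A11. The antioxidant response element core, TGACNNNGC, was searched on both strands of the 250 bases before the listed transcription start. It was found for 3 of the 8, KEAP1, TXNRD1 and GCLM, and in 10.9% of 35116 promoter windows of the same length. The amino acid response element core TTGCATCA was found for 0 of the 8 and in 0.772% of all windows. The matches are printed below because these 3 genes, alike in this element, differed in how their RNA levels changed. Each is written 5′ to 3′ on the strand that reads the element, with the element in capitals.
GCLM (chr1:93909446-93909474, plus strand): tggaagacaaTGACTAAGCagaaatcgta
TXNRD1 (chr12:104286920-104286948, minus strand): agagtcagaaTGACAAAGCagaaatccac
KEAP1, nearer match (chr19:10502784-10502812, plus strand): caggtcaccaTGACTAAGCagagccgggc
KEAP1, farther match (chr19:10502807-10502835, minus strand): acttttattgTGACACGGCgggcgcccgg
The GCLM match spans 34 to 26 bases before the start, that of TXNRD1 102 to 94, and those of KEAP1 31 to 23 and 54 to 46. The starts listed for KEAP1 and TXNRD1 lie inside the annotated extent of these genes, which have other starts. A match is a run of letters and no evidence of binding. Sequence outside these windows was not searched, so a gene without a match here may hold the element elsewhere.

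Levels are FPKM, fragments scaled to gene length and to the size of the library, as the values point to (the file names no unit). FPKM totals lay between 429553 and 474156 in DMSO_EV, 423319 and 432563 in Osi_Lin_EV, and 338034 and 381311 in Osi_cIGF1R. The table does not give the depth of a library, and counting error cannot be computed. The extraction protocol in the labels, shared with the circular RNA libraries of the series, names RNase R, which digests linear RNA; whether it was used for these 9 libraries is not settled by the labels. RNA of mitochondrial DNA made up 30.4%, 20.7% and 20.3% of the FPKM in DMSO_EV replicates 1 to 3, 20.4% to 25.6% in Osi_Lin_EV and 6.08% to 7.28% in Osi_cIGF1R. DMSO_EV replicate 1, with the highest of these shares, was the lowest of its group for 7 of the 10 genes. DMSO_EV replicate 3, with a share close to that of replicate 2, was the highest for 8, and a link with the share was not tested. DMSO_EV replicate 2 and Osi_cIGF1R replicate 1 stood apart from their groups on short noncoding RNAs, with RN7SL1 at 443 and 53.2 FPKM against at most 46.4 and 6.37 in the other libraries of the same group. All 10 epithelial markers on a list for this line were above 1 FPKM in each group, led by KRT8, while summed levels were at most 8.55 FPKM for 7 leukocyte, 4.12 for 4 endothelial and 6.103 for 5 fibroblast markers. The endothelial marker CDH5 moved with the groups, at 3.37 FPKM on average in DMSO_EV, 0.114 in Osi_Lin_EV and 0.482 in Osi_cIGF1R, and its part in the results was not tested. In bulk libraries, fewer cells of a kind and less RNA per cell cannot be told apart.

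The 10 genes did not move as a block in either treated group. With osimertinib and linsitinib, NFE2L2, HMOX1, GCLC, TXNRD1 and GPX4 rose, GCLM, SRXN1 and SLC7A11 fell, and KEAP1 and NQO1 did not pass the test. Of these calls, those of GPX4, NFE2L2, TXNRD1 and GCLM ended under 11, 8, 7 and 5 of the 21 alternatives described below. Those of GCLC, SRXN1 and SLC7A11 ended under 1 each, and that of HMOX1 under 0. With osimertinib and cIGF1R, NFE2L2, KEAP1, HMOX1, GCLC and TXNRD1 rose and NQO1, GCLM, SRXN1, GPX4 and SLC7A11 fell against DMSO_EV. Osi_cIGF1R held more NFE2L2, KEAP1 and GCLC than Osi_Lin_EV and less NQO1, GCLM, GPX4 and SLC7A11. The main test was limma on log2(FPKM + 1) over 13775 genes, with Benjamini-Hochberg adjusted p under 0.05 as the call. All 10 passed the filter of 1 FPKM in at least 3 libraries, at 1 FPKM or more in all 9.

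In Osi_Lin_EV against DMSO_EV, 5 of the 10 were called higher and 3 lower, where 29.0% of all genes tested were called higher and 23.5% lower. The members' median log2 fold change was 0.19, against 0.05 over all genes. In Osi_cIGF1R against DMSO_EV, 5 were higher and 5 lower, against 33.1% and 35.8% of all genes, with a median of 0.02 beside -0.03. In Osi_cIGF1R against Osi_Lin_EV, 3 were higher, 4 lower and 3 not called, against 25.9% higher and 34.8% lower of all genes, with a median of -0.22 beside -0.09. The first 2 comparisons share the DMSO_EV libraries. Without DMSO_EV replicate 2 and Osi_cIGF1R replicate 1, the counts were 2 higher and 3 lower, then 4 and 3, then 2 and 3. With totals set equal after leaving out the mitochondrial genes they were 5 and 3, 5 and 5, and 3 and 4, as in the main test. In Osi_cIGF1R against DMSO_EV, however, the median of all genes then went from -0.03 to 0.01. The share of higher genes among all calls there went from 48.0% to 50.4%. Median-of-ratios rescaling gave 2 and 3, 5 and 5, and 3 and 3. This rescaling also turned the balance of all genes in the 3 comparisons. In Osi_Lin_EV against DMSO_EV, their median went from 0.05 to -0.01 and the share of higher genes among all calls from 55.2% to 46.1%. In Osi_cIGF1R against DMSO_EV, the median went from -0.03 to 0.02 and that share from 48.0% to 51.1%. In Osi_cIGF1R against Osi_Lin_EV, the median went from -0.09 to 0.03 and that share from 42.7% to 54.9%. The shares of all tested genes called under these alternatives are not given here. Whether the members lost more calls than other genes was not tested.

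**Figure D1:**
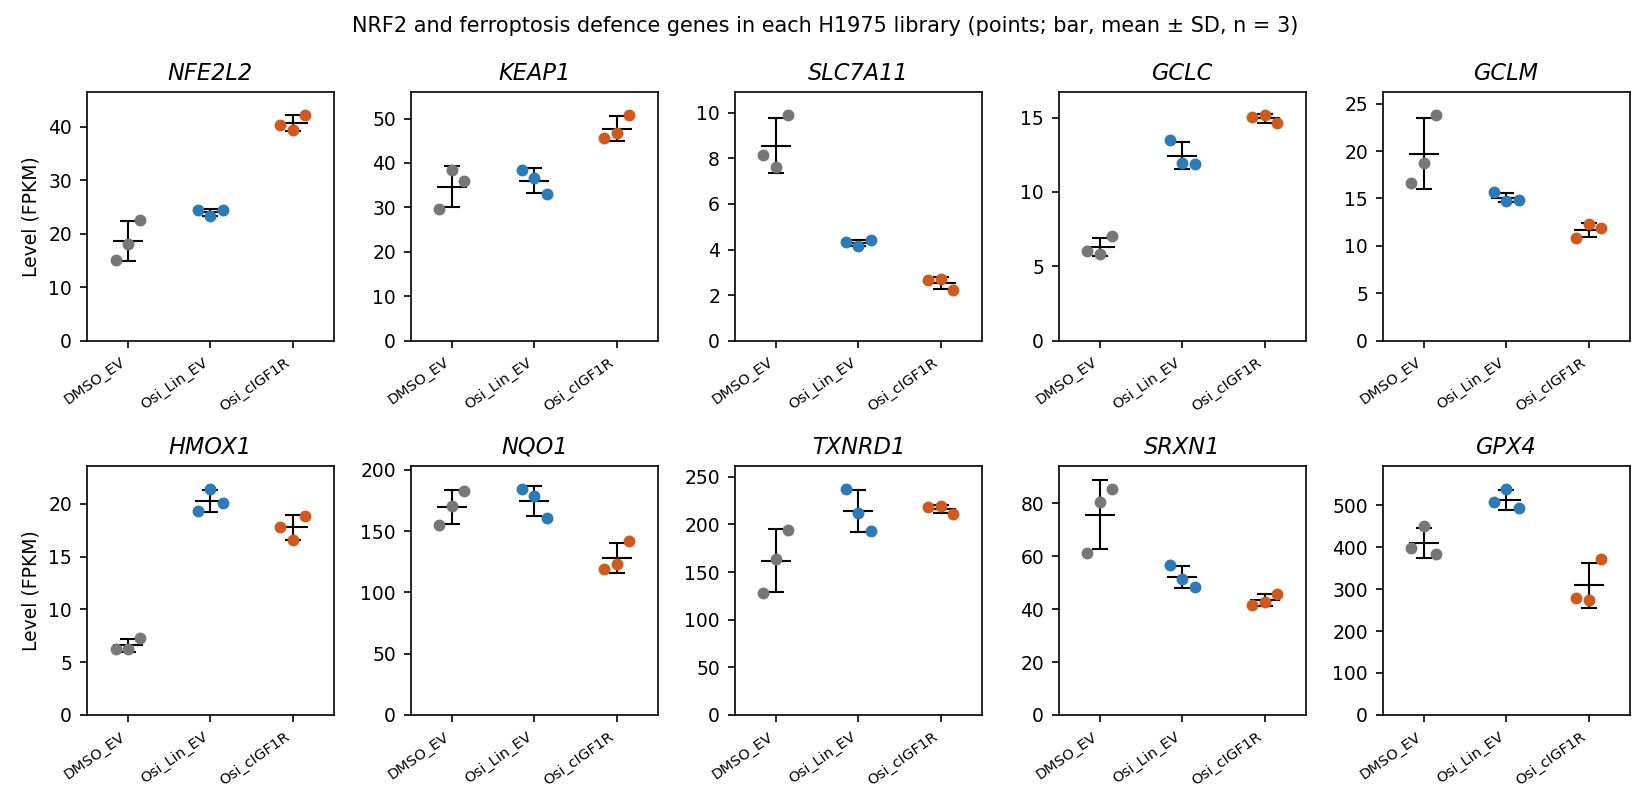
FPKM (vertical axes, from 0) of the 10 genes in each library; points are the libraries of DMSO_EV, Osi_Lin_EV and Osi_cIGF1R, and bars give the mean ± SD (n = 3). HMOX1 and GCLC are higher in both treated groups than in any DMSO_EV library, and SLC7A11 is lower, down to 2.22 FPKM in Osi_cIGF1R.

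**Figure D2:**
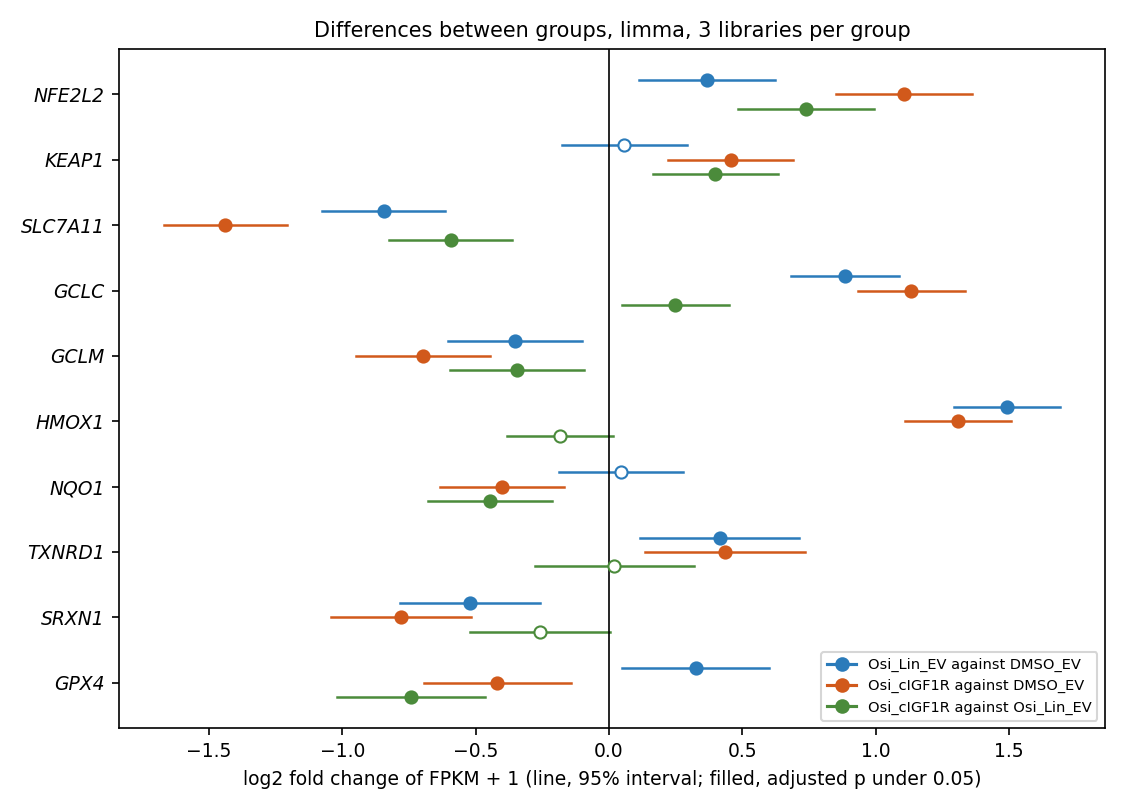
Log2 fold change of FPKM + 1 (horizontal axis) of each gene in the 3 comparisons, with the 95% interval from limma; filled points have an adjusted p under 0.05. GPX4 lies at 0.32 in Osi_Lin_EV and at -0.42 in Osi_cIGF1R against DMSO_EV.

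NFE2L2 and its inhibitor KEAP1 were both highest in Osi_cIGF1R. NFE2L2 (chromosome 2 from 177230303 to 177264727, GRCh38, minus strand) stood at 15.1, 18.1 and 22.5 FPKM in DMSO_EV, 24.3, 23.2 and 24.3 in Osi_Lin_EV and 40.3, 39.4 and 42.2 in Osi_cIGF1R. The 3 groups did not overlap, and the spread was widest in DMSO_EV. The log2 fold change was 1.11 in Osi_cIGF1R against DMSO_EV (SE 0.12, limma adjusted p = 1.99e-06) and 0.74 against Osi_Lin_EV (limma adjusted p = 0.000132). Against DMSO_EV, Osi_Lin_EV was higher by 0.37 (SE 0.12, limma adjusted p = 0.0185). That last call ended without DMSO_EV replicate 1 (log2 fold change 0.24, adjusted p = 0.0695), without DMSO_EV replicate 2 (0.0535) or Osi_Lin_EV replicate 1 or 3 (0.0526 and 0.0517), under median-of-ratios rescaling (0.0606) with no filter (0.0713), and without DMSO_EV replicate 2 and Osi_cIGF1R replicate 1 together (0.0652), over a range of 0.0014 to 0.0713.

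KEAP1 (chromosome 19 from 10486125 to 10503356, minus strand), the adaptor that presents NRF2 to the ubiquitin ligase, stood at 29.6, 38.4 and 36 FPKM in DMSO_EV, 38.4, 36.7 and 32.9 in Osi_Lin_EV and 45.6, 46.6 and 50.9 in Osi_cIGF1R. The Osi_cIGF1R libraries were above all 6 others, while the other 2 groups overlapped. Osi_cIGF1R was higher by 0.46 on the log2 scale than DMSO_EV (SE 0.11, limma adjusted p = 0.00204) and by 0.40 than Osi_Lin_EV (limma adjusted p = 0.00627). Between Osi_Lin_EV and DMSO_EV the log2 difference was 0.06, with a 95% interval of -0.18 to 0.29 (limma adjusted p = 0.675).

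Glutathione synthesis starts from cystine, brought in by SLC7A11, and its first step is catalysed by glutamate-cysteine ligase, made of a catalytic subunit (GCLC) and a modifier subunit (GCLM) that raises its efficiency. The subunits went in opposite directions. GCLC (chromosome 6 from 53497341 to 53545101, minus strand) stood at 6.05, 5.82 and 7.003 FPKM in DMSO_EV, 13.5, 12 and 11.9 in Osi_Lin_EV and 15, 15.2 and 14.6 in Osi_cIGF1R. No DMSO_EV library came near the treated ones. Its log2 fold change against DMSO_EV was 0.88 in Osi_Lin_EV (SE 0.09, limma adjusted p = 3.98e-06) and 1.13 in Osi_cIGF1R (SE 0.09, limma adjusted p = 1.51e-07). The difference between the treated groups, 0.25 (limma adjusted p = 0.0337), was not stable. It ended without Osi_cIGF1R replicate 1 or 2 (adjusted p = 0.0819 and 0.0938), without Osi_Lin_EV replicate 2 or 3 (0.116 and 0.113), without DMSO_EV replicate 2 and Osi_cIGF1R replicate 1 together (0.0935), with no filter (0.0605) and with the replicate block (0.0611), and it was 0.38 under median-of-ratios rescaling.

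GCLM (chromosome 1 from 93885199 to 93909430, minus strand) stood at 16.6, 18.8 and 23.8 FPKM in DMSO_EV, 15.7, 14.7 and 14.9 in Osi_Lin_EV and 10.8, 12.3 and 11.9 in Osi_cIGF1R. The groups did not overlap, though the lowest DMSO_EV library was close to the highest of Osi_Lin_EV. GCLM fell by 0.698 on the log2 scale in Osi_cIGF1R (SE 0.12, limma adjusted p = 0.000123) and by 0.35 in Osi_Lin_EV (SE 0.12, limma adjusted p = 0.0215) against DMSO_EV, and was lower by 0.35 in Osi_cIGF1R than in Osi_Lin_EV (a log2 fold change of -0.35, limma adjusted p = 0.02). The call in Osi_Lin_EV against DMSO_EV ended without DMSO_EV replicate 3 (log2 fold change -0.21, adjusted p = 0.0811), without Osi_Lin_EV replicate 2 or 3 (0.0655 and 0.0576) and with no filter (0.0783). The call between the treated groups ended without Osi_cIGF1R replicate 1 (0.0751) or Osi_Lin_EV replicate 1 (0.0629), without DMSO_EV replicate 2 and Osi_cIGF1R replicate 1 together (0.0946), with no filter (0.0723) and under median-of-ratios rescaling (log2 fold change -0.21, adjusted p = 0.121).

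The ratio of GCLC to GCLM within a library does not depend on how libraries are scaled. It was 0.294 to 0.365 in DMSO_EV, 0.798 to 0.863 in Osi_Lin_EV and 1.23 to 1.39 in Osi_cIGF1R. In FPKM, the message of the catalytic subunit was thus the scarcer of the pair in DMSO_EV and Osi_Lin_EV and the more abundant in Osi_cIGF1R. Geometric means of the ratio differed 2.56-fold between Osi_Lin_EV and DMSO_EV, 3.99-fold between Osi_cIGF1R and DMSO_EV and 1.56-fold between the treated groups. Each difference had a two-sided exact permutation p of 0.1, the smallest that 3 libraries against 3 allow (0.107 after Benjamini-Hochberg adjustment over the 15 ratio comparisons made). The 5 ratios were chosen after the values had been seen.

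SLC7A11 (chromosome 4 from 138164097 to 138242349), the cystine carrier whose inhibition starves cells of glutathione, had the largest fall among the 10 genes in both comparisons with DMSO_EV. It stood at 8.15, 7.62 and 9.93 FPKM in DMSO_EV, 4.34, 4.15 and 4.41 in Osi_Lin_EV and 2.64, 2.7 and 2.22 in Osi_cIGF1R. The 3 groups were well separated, with every Osi_cIGF1R library lowest. The log2 fold change was -0.84 in Osi_Lin_EV (SE 0.11, limma adjusted p = 2.17e-05) and -1.44 in Osi_cIGF1R (SE 0.11, limma adjusted p = 5.57e-08) against DMSO_EV, and -0.59 between the treated groups (limma adjusted p = 0.00035). The gene is low, and a pseudocount of 5 in place of 1 gave -0.54, -0.85 and -0.31 in the same order, all still called. In FPKM, the mean was 3.40 times as high in DMSO_EV as in Osi_cIGF1R. SLC3A2, the heavy chain that carries SLC7A11 to the membrane, averaged 116 ± 3.47 FPKM without drug (DMSO_EV), 86.1 ± 4.92 under Osi_Lin_EV and 86.7 ± 13.9 under Osi_cIGF1R (SD, n = 3), and its log2 fold change was -0.42 in each treated group against DMSO_EV (limma adjusted p = 0.00639 and 0.00434). SLC7A11 relative to SLC3A2 within a library was 0.0638 to 0.0877 in DMSO_EV, 0.0472 to 0.0549 in Osi_Lin_EV and 0.0216 to 0.0345 in Osi_cIGF1R, with no overlap (two-sided exact permutation p = 0.1 in each comparison, the smallest possible).

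**Figure D3:**
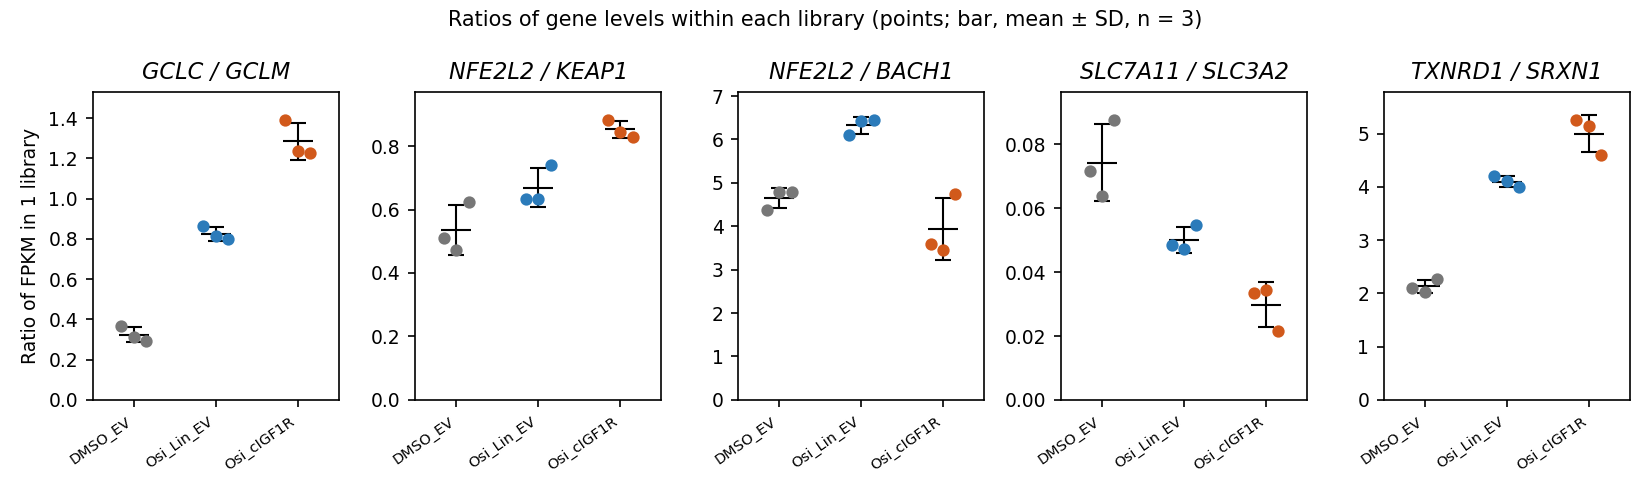
Ratio of 2 FPKM values from the same library (vertical axes, from 0) for 5 pairs of genes; points are libraries and bars the mean ± SD (n = 3). GCLC over GCLM goes from at most 0.365 in DMSO_EV to at least 1.23 in Osi_cIGF1R.

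HMOX1 (chromosome 22 from 35381096 to 35394207), heme oxygenase 1, breaks down heme to biliverdin, carbon monoxide and iron. It had the largest rise among the 10 genes in both comparisons with DMSO_EV. It stood at 6.203, 6.28 and 7.26 FPKM in DMSO_EV, 19.4, 21.4 and 20.1 in Osi_Lin_EV and 17.8, 16.6 and 18.9 in Osi_cIGF1R. Every treated library held more than 2 times the level of any DMSO_EV library. The log2 fold change was 1.49 in Osi_Lin_EV (SE 0.09, limma adjusted p = 2.4e-08) and 1.31 in Osi_cIGF1R (SE 0.09, limma adjusted p = 3.29e-08) against DMSO_EV. The treated groups did not overlap, but their difference of -0.18 did not pass (95% interval -0.38 to 0.02, limma adjusted p = 0.102). It passed only under quantile normalization (adjusted p = 0.0181, range over the alternatives 0.0181 to 0.669).

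NQO1 (chromosome 16 from 69709401 to 69726560, minus strand), the quinone reductase often read as a marker of NRF2 activity, was not higher in either treated group by the test. It stood at 155, 171 and 182 FPKM in DMSO_EV, 185, 178 and 161 in Osi_Lin_EV and 119, 123 and 142 in Osi_cIGF1R. DMSO_EV and Osi_Lin_EV overlapped, and all Osi_cIGF1R libraries were below them. The log2 difference between Osi_Lin_EV and DMSO_EV was 0.04, with a 95% interval of -0.19 to 0.28 (limma adjusted p = 0.748). In Osi_cIGF1R the log2 fold change was -0.402 against DMSO_EV (SE 0.11, limma adjusted p = 0.00447) and -0.45 against Osi_Lin_EV (limma adjusted p = 0.00287). The first of these ended without DMSO_EV replicate 2 and Osi_cIGF1R replicate 1 together (-0.35, adjusted p = 0.0603).

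TXNRD1 and SRXN1 act in the repair of oxidised protein thiols, TXNRD1 as the selenoenzyme that recharges thioredoxin and SRXN1 as the sulfiredoxin that restores overoxidised peroxiredoxins. They went apart. TXNRD1 (chromosome 12 from 104215779 to 104350307, plus strand) stood at 128, 164 and 194 FPKM in DMSO_EV, 237, 212 and 193 in Osi_Lin_EV and 219, 219 and 211 in Osi_cIGF1R. DMSO_EV was widely spread, and its highest library overlapped Osi_Lin_EV. TXNRD1 rose by 0.41 on the log2 scale in Osi_Lin_EV (SE 0.14, limma adjusted p = 0.0223) and by 0.43 in Osi_cIGF1R (SE 0.14, limma adjusted p = 0.0128). These calls rest on the low DMSO_EV replicate 1: without it the log2 fold changes were 0.26 and 0.28 (adjusted p = 0.0936 and 0.0597). In Osi_Lin_EV the call also ended without Osi_Lin_EV replicate 1 or 2 (0.0974 and 0.0552) and under median-of-ratios rescaling (0.0642), and with no filter both ended (0.0833 and 0.0539), as they did without DMSO_EV replicate 2 and Osi_cIGF1R replicate 1 together (0.0571 and 0.0582). The difference between the treated groups was 0.02 (95% interval -0.28 to 0.32, limma adjusted p = 0.913).

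SRXN1 (chromosome 20 from 646615 to 653200, minus strand) stood at 61.2, 80.7 and 85.5 FPKM in DMSO_EV, 56.6, 51.6 and 48.3 in Osi_Lin_EV and 41.6, 42.7 and 45.8 in Osi_cIGF1R. The groups did not overlap. The log2 fold change was -0.52 in Osi_Lin_EV (SE 0.12, limma adjusted p = 0.00282) and -0.78 in Osi_cIGF1R (SE 0.12, limma adjusted p = 6.97e-05) against DMSO_EV. Between the treated groups it was -0.26 (95% interval -0.52 to 0.0034, limma adjusted p = 0.0809), which passed under quantile normalization (0.0299), in a fit of those groups alone (0.0278) and without DMSO_EV replicate 1 (0.0222), over a range of 0.0222 to 0.42. The ratio of TXNRD1 to SRXN1 within a library was 2.03 to 2.27 in DMSO_EV, 3.99 to 4.196 in Osi_Lin_EV and 4.61 to 5.26 in Osi_cIGF1R, with no overlap (two-sided exact permutation p = 0.1 in each comparison, the smallest possible).

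GPX4 (chromosome 19 from 1103994 to 1106779, plus strand), the selenoenzyme that reduces lipid peroxides in membranes, moved in opposite directions in the treated groups. It stood at 397, 449.6 and 383 FPKM in DMSO_EV, 507, 539 and 493 in Osi_Lin_EV and 279.9, 275 and 371 in Osi_cIGF1R. Osi_Lin_EV was above and Osi_cIGF1R below DMSO_EV in every library, with replicate 3 of Osi_cIGF1R close to the lowest DMSO_EV library. The difference between the treated groups was the firmest of the 3, a log2 fold change of -0.74 (SE 0.13, limma adjusted p = 0.000247) that stayed called under every alternative other than a required size of 1. Against DMSO_EV, Osi_cIGF1R was lower by 0.42 (a log2 fold change of -0.42, limma adjusted p = 0.0103). This call ended without DMSO_EV replicate 2 (0.0528) or Osi_cIGF1R replicate 2 (0.0521), without DMSO_EV replicate 2 and Osi_cIGF1R replicate 1 together (-0.29, 0.152) and under quantile normalization (-0.17, adjusted p = 0.0579). The rise in Osi_Lin_EV, 0.32 (limma adjusted p = 0.0476), ended without DMSO_EV replicate 1 or 3 (0.0991 and 0.147), without Osi_Lin_EV replicate 1, 2 or 3 (0.0982, 0.148 and 0.0746), under median-of-ratios rescaling (0.169), with no filter (0.111), with a pseudocount of 5 (0.0504), with the replicate block (0.0853) and without DMSO_EV replicate 2 and Osi_cIGF1R replicate 1 together (0.0506), over a range of 0.000286 to 0.169.

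Since FPKM is scaled to gene length, levels can also be ordered between genes. GPX4 was the highest of the 10 in all 3 groups, at 410.1, 513 and 309 FPKM on average in DMSO_EV, Osi_Lin_EV and Osi_cIGF1R. NQO1 and TXNRD1 followed, overlapping in DMSO_EV at 169 and 162 FPKM, whereas TXNRD1 led in Osi_Lin_EV (214 against 175) and Osi_cIGF1R (216 against 128) without overlap. In the middle came SRXN1, KEAP1 and NFE2L2, which were clearly apart in DMSO_EV (75.8, 34.7 and 18.6) but close together in Osi_cIGF1R, where KEAP1 at 47.7 overlapped SRXN1 at 43.4 and SRXN1 overlapped NFE2L2 at 40.6. The lowest 2 in DMSO_EV were HMOX1 and GCLC, at 6.58 and 6.29 FPKM and overlapping, and in both treated groups SLC7A11, at 4.301 and 2.52. GCLM and NFE2L2 also overlapped in DMSO_EV, at 19.7 and 18.6 FPKM. All other neighbours in these orders had separate ranges.

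Other factors of the NRF2 pathway were read from a list of 19 regulators, of which 18 were tested. In Osi_Lin_EV against DMSO_EV, 4 rose and 3 fell (22.2% and 16.7%, against 29.0% and 23.5% of all genes). In Osi_cIGF1R against DMSO_EV, 7 rose and 5 fell (38.9% and 27.8%, against 33.1% and 35.8%), and in Osi_cIGF1R against Osi_Lin_EV 8 were higher and 1 lower (44.4% and 5.56%, against 25.9% and 34.8%). These counts are unstable: the count lower in Osi_cIGF1R against DMSO_EV was 3 in place of 5 under median-of-ratios rescaling, with equal totals without mitochondrial genes, with the replicate block, and in a fit of the 2 groups alone. It was 2 with no filter, and 3 without DMSO_EV replicate 2 and Osi_cIGF1R replicate 1 together, or without DMSO_EV replicate 2 or 3, Osi_cIGF1R replicate 1, 2 or 3, or Osi_Lin_EV replicate 2. The count lower in Osi_Lin_EV against DMSO_EV went from 3 to 5 under median-of-ratios rescaling. The count of 1 lower between the treated groups went to 0 under that rescaling, with no filter, without DMSO_EV replicate 2 and Osi_cIGF1R replicate 1 together, and without Osi_cIGF1R replicate 1 or 2 or Osi_Lin_EV replicate 2 or 3. List medians were -0.03, 0.09 and 0.03 on the log2 scale, beside 0.05, -0.03 and -0.09 over all genes. BACH1, the repressor that competes with NRF2 at its sites, stood at 3.46, 3.79 and 4.69 FPKM in DMSO_EV, 3.99, 3.62 and 3.78 in Osi_Lin_EV and 11.2, 11.4 and 8.89 in Osi_cIGF1R. Only the last group stood apart, with a log2 fold change of 1.21 against DMSO_EV (SE 0.12, limma adjusted p = 8.02e-07; 0.79 with a pseudocount of 5). The ratio of NFE2L2 to BACH1 was 4.38 to 4.79 in DMSO_EV, 6.1 to 6.45 in Osi_Lin_EV and 3.45 to 4.75 in Osi_cIGF1R. It overlapped between Osi_cIGF1R and DMSO_EV (two-sided exact permutation p = 0.2), while the ratio of NFE2L2 to KEAP1 did not overlap between any groups, at 0.472 to 0.624, 0.633 to 0.739 and 0.8299 to 0.882 (p = 0.1, the smallest an exact permutation test can give here).

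MAFF, a small MAF partner that is also an immediate early gene, was lower in both treated groups, at 5.804 ± 0.487 FPKM in Osi_Lin_EV and 11.6 ± 0.535 in Osi_cIGF1R against 20.3 ± 1.02 in DMSO_EV (SD, n = 3; log2 fold changes -1.65 and -0.76, limma adjusted p = 6.53e-09 and 4.84e-06). NFE2L1, the NRF2 relative that controls proteasome genes, rose from 23.9 ± 2.7 FPKM to 31.99 ± 1.91 in Osi_Lin_EV and 54.8 ± 5.19 in Osi_cIGF1R (log2 fold changes 0.41 and 1.17). SQSTM1, the autophagy receptor p62 that can bind KEAP1 away from NRF2, rose from 256 ± 29.7 to 391 ± 24.5 FPKM in Osi_Lin_EV and 399.8 ± 31.6 in Osi_cIGF1R (log2 fold changes 0.62 and 0.65, limma adjusted p = 0.000574 and 0.00023). NFE2L3, another relative, fell from 8.598 ± 0.737 to 4.79 ± 0.481 FPKM in Osi_Lin_EV (log2 fold change -0.73; -0.47 with a pseudocount of 5) and rose to 11.4 ± 0.0904 in Osi_cIGF1R (0.37, limma adjusted p = 0.00369). CAND1, an exchange factor of cullin ligases, rose by 0.66 on the log2 scale in Osi_cIGF1R against DMSO_EV, with a difference of 0.11 in Osi_Lin_EV that did not pass (limma adjusted p = 0.458).

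A list of 40 further NRF2 targets was tested whole. In Osi_Lin_EV against DMSO_EV 17 rose and 6 fell (42.5% and 15%, against 29.0% and 23.5% of all genes), with a median of 0.23 beside 0.05 over all genes. In Osi_cIGF1R against DMSO_EV 10 rose and 13 fell (25% and 32.5%, against 33.1% and 35.8%), and against Osi_Lin_EV 4 were higher and 19 lower (10% and 47.5%, against 25.9% and 34.8%; median -0.21 beside -0.09). The 4 became 8 under median-of-ratios rescaling and under quantile normalization and 7 with equal totals without mitochondrial genes, and the 13 became 8 without DMSO_EV replicate 2 and Osi_cIGF1R replicate 1 together. CES1, a carboxylesterase, averaged 2.71 ± 0.395 FPKM without drug (DMSO_EV), 8.5 ± 0.327 under Osi_Lin_EV and 22.3 ± 1.47 under Osi_cIGF1R (SD, n = 3; log2 fold changes 1.36 and 2.65; 0.81 for the first with a pseudocount of 5). IDH1, an NADPH-making isocitrate dehydrogenase, rose from 41 ± 8.04 FPKM to 74.7 ± 7.06 in Osi_Lin_EV and 96.9 ± 7.47 in Osi_cIGF1R (log2 fold changes 0.86 and 1.24, limma adjusted p = 0.000116 and 2.13e-06). UGT1A6, a glucuronosyltransferase, rose by 1.33 and 1.29; it shares exons with its neighbours of the UGT1A cluster, so its reads may be split among them.

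TXN, thioredoxin itself, the substrate of TXNRD1, fell while its reductase did not: it averaged 383 ± 11.2 FPKM without drug (DMSO_EV), 279 ± 19.8 under Osi_Lin_EV and 147 ± 30.9 under Osi_cIGF1R (SD, n = 3), a log2 fold change of -1.399 in the last against DMSO_EV (SE 0.13, limma adjusted p = 6.43e-07) and of -0.94 between the treated groups. ABCC2, an exporter of glutathione conjugates, fell from 41.6 ± 3.02 to 21.97 ± 1.64 FPKM in Osi_Lin_EV and 22.2 ± 3.32 in Osi_cIGF1R (log2 fold changes -0.89 and -0.88). NR0B1, a nuclear receptor that NRF2 induces in KEAP1-mutant lung cancer, stood at 10.4 ± 1.04 FPKM in DMSO_EV, 19.4 ± 0.498 in Osi_Lin_EV and 5.34 ± 1.37 in Osi_cIGF1R, and was lower by 1.71 in the last than in Osi_Lin_EV (a log2 fold change of -1.71, limma adjusted p = 2.84e-07). CBR3, a carbonyl reductase, went the other way in that comparison, by 1.08 (0.71 with a pseudocount of 5).

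**Figure D4:**
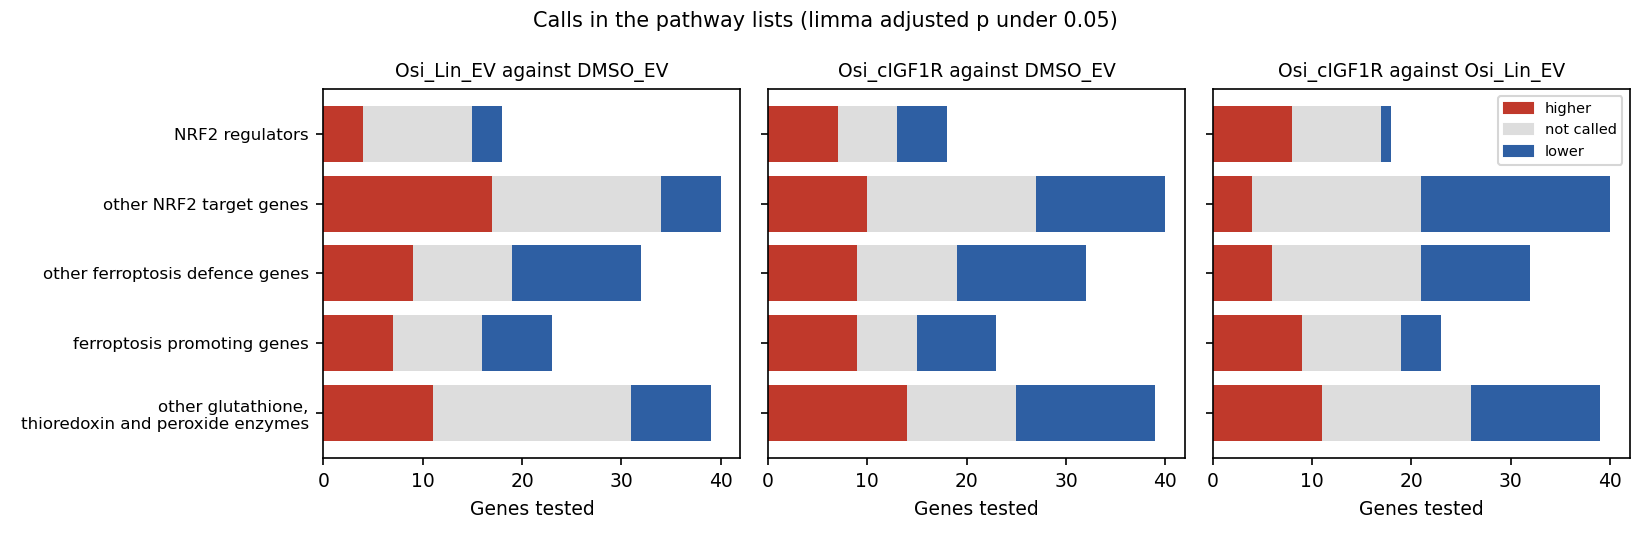
Number of tested genes called higher, lower or not called (horizontal axis) in the 5 pathway lists for each comparison (limma adjusted p under 0.05). Among the 40 other NRF2 targets, 17 are higher in Osi_Lin_EV than in DMSO_EV, and 19 are lower in Osi_cIGF1R than in Osi_Lin_EV.

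Of 33 other genes that protect from ferroptosis, 32 were tested. In both Osi_Lin_EV and Osi_cIGF1R, 9 rose and 13 fell against DMSO_EV (28.1% and 40.6%), where 29.0% and 23.5% of all genes did so in Osi_Lin_EV and 33.1% and 35.8% in Osi_cIGF1R. In Osi_cIGF1R against Osi_Lin_EV 6 were higher and 11 lower (18.8% and 34.4%, against 25.9% and 34.8%). The shares in Osi_cIGF1R against DMSO_EV, and the share lower against Osi_Lin_EV, were near those of all genes. Their medians were -0.15, -0.02 and -0.0038, beside 0.05, -0.03 and -0.09 over all genes. Under median-of-ratios rescaling the last comparison gave 11 higher and 7 lower, and 7 were lower there without Osi_cIGF1R replicate 1 or 2 or Osi_Lin_EV replicate 2. Both chains of ferritin, the store that keeps iron from reacting, rose in both treated groups. FTL went from 2137 ± 165 FPKM in DMSO_EV to 3999.7 ± 241 in Osi_Lin_EV and 2826 ± 363 in Osi_cIGF1R (SD, n = 3), with log2 fold changes of 0.91 and 0.40 (limma adjusted p = 7.73e-05 and 0.0164). The second of these ended without DMSO_EV replicate 1 (0.33, adjusted p = 0.056) and was 1.24 under quantile normalization. FTH1 went from 2277 ± 269 FPKM to 4089 ± 376 and 4151 ± 582 (log2 fold changes 0.85 and 0.86, limma adjusted p = 0.000303 and 0.000145; 1.93 for the second under quantile normalization). Between the treated groups FTL was lower in Osi_cIGF1R (log2 fold change -0.51, limma adjusted p = 0.00498), but higher by 0.46 under quantile normalization. In the same comparison FTH1 differed by 0.02 in the main test, and by 1.25 under quantile normalization (limma adjusted p = 1.92e-06). Both have processed pseudogenes with near-identical sequence, to which reads may be split. SLC40A1, the iron exporter ferroportin, stood at 0.80 FPKM on average in DMSO_EV, 3.13 in Osi_Lin_EV and 6.27 in Osi_cIGF1R (log2 fold changes 1.19 and 2.02 against DMSO_EV, limma adjusted p = 2.13e-06 and 4.64e-09; 0.48 and 0.96 with a pseudocount of 5).

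LRP8, a receptor that takes up selenoprotein P and with it the selenium that GPX4 and TXNRD1 need, stood at 21.3, 17.2 and 18.8 FPKM in DMSO_EV, 2.95, 3.06 and 2.42 in Osi_Lin_EV and 1.99, 2.11 and 1.72 in Osi_cIGF1R. Treated libraries were all far below the DMSO_EV range, with log2 fold changes of -2.396 (limma adjusted p = 1.12e-09) and -2.77 (limma adjusted p = 7.92e-11; -1.79 with a pseudocount of 5). EEFSEC, the elongation factor that delivers selenocysteine to the ribosome, was lower by 0.86 on the log2 scale in Osi_cIGF1R than in Osi_Lin_EV (a log2 fold change of -0.86, limma adjusted p = 2.13e-05; -0.52 with a pseudocount of 5), and than in DMSO_EV by 0.74 (a log2 fold change of -0.74; -0.44 with a pseudocount of 5). PDSS1, which makes the side chain of ubiquinone, a lipid antioxidant, fell from 5.05 ± 0.721 FPKM to 1.29 ± 0.228 and 0.662 ± 0.209 (log2 fold changes -1.397 and -1.86; -0.67 and -0.83 with a pseudocount of 5). SCD, the desaturase that makes monounsaturated fatty acids, which resist peroxidation, was 433 ± 56.6 FPKM in Osi_cIGF1R against 99.6 ± 9.94 in Osi_Lin_EV (log2 fold change 2.11, limma adjusted p = 1.15e-07) and 166 ± 35.6 in DMSO_EV, from which it rose by 1.39 in Osi_cIGF1R and fell by 0.71 in Osi_Lin_EV. MBOAT1, which loads such fatty acids into phospholipids, was also higher in Osi_cIGF1R than in Osi_Lin_EV, by 1.04 (0.55 with a pseudocount of 5), and than in DMSO_EV, by 1.38 (0.69 with a pseudocount of 5).

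Of 31 genes listed as promoting ferroptosis, some of which, such as PTGS2, serve rather as its markers, 30 were in the table and 23 tested. In Osi_Lin_EV against DMSO_EV, 7 rose and 7 fell (30.4% each, against 29.0% and 23.5% of all genes), and in Osi_cIGF1R 9 rose and 8 fell (39.1% and 34.8%, against 33.1% and 35.8%). Between the treated groups 9 were higher and 4 lower in Osi_cIGF1R (39.1% and 17.4%, against 25.9% and 34.8%). The 7 that rose in Osi_Lin_EV became 4 without DMSO_EV replicate 2 or without Osi_Lin_EV replicate 1, and 3 without DMSO_EV replicate 2 and Osi_cIGF1R replicate 1 together. Medians were 0.09, 0.17 and -0.08 on the log2 scale, beside 0.05, -0.03 and -0.09 over all genes. TFRC, the transferrin receptor that brings iron in, fell from 40.3 ± 9.45 FPKM to 13.8 ± 0.969 and 12.2 ± 1.01 (SD, n = 3; log2 fold changes -1.46 and -1.62, limma adjusted p = 1.73e-06 and 2.61e-07). NCOA4, which sends ferritin for degradation, rose from 81.7 ± 18.3 FPKM to 202 ± 5.22 in Osi_cIGF1R (log2 fold change 1.32) and to 111 ± 11.9 in Osi_Lin_EV (0.45, limma adjusted p = 0.0157). The latter call ended without DMSO_EV replicate 1 (0.30, adjusted p = 0.0667), DMSO_EV replicate 2 (0.0503) or Osi_Lin_EV replicate 1 (0.0712), without DMSO_EV replicate 2 and Osi_cIGF1R replicate 1 together (0.0572) and with no filter (0.0714).

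ACSL4 and LPCAT3, which activate polyunsaturated fatty acids and put them into the phospholipids that ferroptosis oxidises, differed between the treated groups. ACSL4 stood at 9.31, 10.4 and 13.4 FPKM in DMSO_EV, 5.43, 4.94 and 4.41 in Osi_Lin_EV and 13.4, 13.5 and 12 in Osi_cIGF1R. Osi_Lin_EV was the low group, with log2 fold changes of -1.01 against DMSO_EV (limma adjusted p = 1.41e-05) and of 1.24 for Osi_cIGF1R against it (limma adjusted p = 1.98e-06). LPCAT3 reached 34.9 ± 0.887 FPKM in Osi_cIGF1R from 14.1 ± 2.14 in DMSO_EV and 18.5 ± 2.21 in Osi_Lin_EV (log2 fold changes 1.26 and 0.89). CYB5R1, a reductase that feeds lipid peroxidation, rose by 0.69 in Osi_Lin_EV and 1.48 in Osi_cIGF1R against DMSO_EV, and the prostaglandin synthase PTGS2 was lower by 1.28 in Osi_cIGF1R than in Osi_Lin_EV (a log2 fold change of -1.28) and than in DMSO_EV by 1.09 (-1.09). ACO1, which doubles as an iron sensor, and the zinc and iron importer SLC39A14 fell by 0.83 and 0.80 in Osi_Lin_EV (by 0.53 and 0.51 with a pseudocount of 5) and fell by 1.09 and 0.92 in Osi_cIGF1R (by 0.66 and 0.57 with a pseudocount of 5; limma adjusted p = 0.000131 and 6.25e-05).

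The last list held 42 other enzymes of glutathione, thioredoxin and peroxide metabolism, 39 of them tested. In Osi_Lin_EV against DMSO_EV, 11 rose and 8 fell (28.2% and 20.5%, against 29.0% and 23.5% of all genes), and in Osi_cIGF1R 14 rose and 14 fell (35.9% each, against 33.1% and 35.8%). Between the treated groups 11 were higher and 13 lower in Osi_cIGF1R (28.2% and 33.3%, against 25.9% and 34.8%). These shares were near those of all genes in all 3 comparisons. Median-of-ratios rescaling gave 13 lower in the first comparison and 8 lower in the last. Medians were -0.03, -0.09 and -0.09, beside the same values over all genes as above. GLRX, glutaredoxin, which uses glutathione to reduce protein thiols, averaged 9.001 ± 1.18 FPKM without drug (DMSO_EV), 4.596 ± 0.515 under Osi_Lin_EV and 45.8 ± 4.28 under Osi_cIGF1R (SD, n = 3), a log2 fold change of 3.07 between the treated groups (SE 0.11, limma adjusted p = 6.78e-11). TXNIP, which binds and inhibits thioredoxin, rose from 17.9 ± 3.904 FPKM in DMSO_EV to 34.2 ± 2.101 in Osi_Lin_EV and 114 ± 4.16 in Osi_cIGF1R (log2 fold changes 0.91 and 2.62). SOD3, the extracellular superoxide dismutase, rose by 1.35 and 1.85 (0.78 and 1.14 with a pseudocount of 5), and GSTK1, a glutathione transferase, by 0.93 and 1.44. SOD2, the mitochondrial superoxide dismutase, was higher in Osi_cIGF1R by 0.99 than in Osi_Lin_EV and by 0.94 than in DMSO_EV. The transferase GSTZ1 rose by 0.95 in Osi_Lin_EV and 0.78 in Osi_cIGF1R, and GGCT, which acts in the turnover of glutathione, fell by 0.91 and 1.02.

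The genes with profiles most like 3 of the 10 were found by Euclidean distance between centred log2 profiles over the 9 libraries, among 7702 genes with a mean of at least 5 FPKM. Nearest to NQO1 were OAZ2 (distance 0.13), TRIM16L (0.14) and APEX1 (0.16), with TRIM16L also on the list of other NRF2 targets. Nearest to SLC7A11 were GNL3 (0.29), PVR (0.31) and MRPS6 (0.33). Nearest to GPX4 were ARF5 (0.17), MYL6B (0.18) and the peroxiredoxin PRDX5 (0.19), which stood at 258 FPKM in DMSO_EV, 338 in Osi_Lin_EV and 211 in Osi_cIGF1R.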

How the data were processed

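RNA-seq values of 9 H1975 libraries were used, with 3 each in DMSO_EV, Osi_Lin_EV and Osi_cIGF1R as titled, and 12 libraries made for circular RNA were left out. The authors deposited 1 table by gene symbol, with a column per library matched by title; its fractional values point to FPKM made by the authors, with no steps of whole reads. Per the submitters' processing notes, hg38, Bowtie2 2.1.0, STAR and edgeR were used, with no role named. Which counter, annotation and strand setting made the table is not given in the sources used here. Without strand, genes overlapping TXNRD1, SRXN1 and SLC7A11 may share reads with them. The log2(FPKM + 1) values were fitted with limma 3.58.1 in R 4.3.3 (group means, trend, robust), over 13775 genes with 1 FPKM in at least 3 libraries, in 1 fit of the 9 libraries, Benjamini-Hochberg adjusted, and the step was tested on simulated data. Fold changes on this scale understate those of low genes. Named genes were all 10 members and, per list and comparison, up to 4 called genes ranked by size of change, provided the 2 groups had separate ranges and the higher one averaged 5 FPKM or more. The 5 lists were NRF2 regulators, other NRF2 targets, other ferroptosis defence genes, ferroptosis-promoting genes and other glutathione, thioredoxin and peroxide enzymes. The lists overlap, and genes shared between them, such as TXN, GSR, FTH1 and FTL, were counted in each. Members and lists were chosen with earlier results of these data known. The 21 alternatives covered scaling, filter, pseudocount, variance model, fit, block, size and left-out libraries. Figures were drawn with matplotlib 3.10.9 in Python 3.11.15.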

Additional observations from a re-analysis of the deposited data

How the results depend on the processing

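In Osi_Lin_EV against DMSO_EV the members called (8, of which 5 higher and 3 lower) became 5 under median-of-ratios rescaling (2 higher), 4 with no filter (2 higher), and 5 without DMSO_EV replicate 2 and Osi_cIGF1R replicate 1 together (2 higher). Leaving out 1 library gave 5 to 8 called, 2 to 5 higher and 2 to 3 lower, with 5 called without DMSO_EV replicate 1 and without each of the Osi_Lin_EV replicates 1, 2 and 3. In Osi_cIGF1R against DMSO_EV, 9 to 10 were called without 1 library, and without those 2 libraries together 3 were lower in place of 5. In Osi_cIGF1R against Osi_Lin_EV, 5 to 8 were called without 1 library. With an absolute log2 fold change of at least 1 required, 1 member was called in the first comparison (1 higher, 0 lower), 4 in the second (3 higher, 1 lower) and 0 in the third (0 higher, 0 lower), by construction of that limit. Of 630 values of the members under the alternatives 559 kept their side of the threshold and direction, and 0 called values reversed. The 56 named calls of list genes kept direction and call in all 1118 values computed under the 20 alternatives other than that size limit. They had been picked from these same data for large changes and separate groups, which favours such stability, so this is no independent check. Of 2265 values of the named list genes over the 3 comparisons, 2181 kept their side of the threshold and direction, and 1 reversed. FTL in Osi_cIGF1R against Osi_Lin_EV turned from -0.51 to 0.46 under quantile normalization, and the cause was not tested. Over all genes, the same size limit left 503 higher and 763 lower calls of 3999 and 3242, then 1433 and 1571 of 4563 and 4936, then 907 and 603 of 3568 and 4788, and a filter at 5 FPKM left 3238 lower calls in the second comparison and 3148 in the third, with fewer genes tested. Of the list counts, with no filter 2 in place of 5 NRF2 regulators were lower in the second comparison and 0 in place of 1 in the third, 7 in place of 11 other ferroptosis defence genes were lower in the third, and at 5 FPKM 2 in place of 4 regulators were higher in the first and 5 in place of 8 in the third. Replicate numbers did not pair libraries: deviations from group means of same-numbered libraries correlated between -0.31 and 0.04, with 0 of 9 pairs over 0.1 and 0 of 9 libraries nearest to their own number. With the replicate block, 7, 10 and 6 members were called in the 3 comparisons. Counts over all genes with no filter, with left-out libraries and with the replicate block are not given here. The member counts under those settings therefore do not show whether members lost more calls than other genes. Read depth is unknown, so what it limits cannot be stated.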

Other observations

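SLC7A11-AS1, a gene that overlaps SLC7A11, was below the filter on low values and had no test. It stood at 0.695, 0.523 and 0.829 FPKM in DMSO_EV, 0.229, 0.282 and 0.264 in Osi_Lin_EV and 0.124, 0.0872 and 0.0258 in Osi_cIGF1R, in the order of SLC7A11 itself. It was chosen after its values were seen. Of the genes that lie within the extent of TXNRD1, the pseudogene RPL18AP3 stood at 109 ± 6.54 FPKM in DMSO_EV, 90.5 ± 3.76 in Osi_Lin_EV and 61.3 ± 6.71 in Osi_cIGF1R, and EID3 at 3.68 ± 1.43, 8.06 ± 0.921 and 5.27 ± 1.05 (SD, n = 3). How far such overlaps enter the values of the member genes was not tested.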
